A study of Mus musculus with 22 samples.

Results

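The complement genes C1qa, C1qb, C1qc, C2, Cfb and Serping1 were described in mouse subcutaneous connective tissue, together with the wider complement pathway. The members were 9 listed genes, each taken through probes annotated to that gene alone, and a gene with several such probes was represented by its brightest, judged by the mean of the 22 samples. This gave values for 6 of the 9 genes, out of 12393 genes measured in all. C3 and Cfd had no probe under their own name in the annotation used, and C4b was listed only on a probe that it shares with another gene, so these 3 are not analysed here.

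Complement is a set of proteins that tag microbes and dead cells for uptake and punch pores in membranes. C1q, built from the chains encoded by C1qa, C1qb and C1qc, starts the classical route when it binds antibodies or damaged surfaces, and tissue macrophages are its main source. C2 supplies the protease of the C3-cleaving enzyme of the classical and lectin routes, factor B (Cfb) supplies that of the alternative route, and C1 inhibitor (Serping1) blocks the proteases that C1q sets in motion. Unlike most plasma complement proteins, which come from the liver, these can be made by macrophages, fibroblasts and other cells of connective tissue, and factor B and C2 are known to be induced by interferon and inflammatory cytokines.

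All mice were male C57BL/6 of 19 to 24 g, and the RNA came from loose subcutaneous tissue of the trunk, a mixture of cell types. The 4 groups were ex vivo stretched and ex vivo shortened tissue of 4 animals, and in vivo stretched and in vivo shortened tissue of 7 animals, each animal giving 1 stretched and 1 shortened piece. The study asked how loose connective tissue responds to static stretch, with stretched and shortened assigned at random within an animal. How long tissue was stretched or kept outside the body is not given in the sources used here, and a group without any handling was not analysed here.

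The values are log2 signals, so a difference of 1 is a doubling or halving. In vivo arrays had medians of 7.28 to 7.41 and ex vivo arrays 6.85 to 6.90, so ex vivo and in vivo tissue were compared after every array was shifted to a common median, and the setting cannot be told apart from a processing batch. The difference between the 3' and 5' Gapdh control probes, which grows as RNA degrades, was 0.05 to 0.91 ex vivo and 0.11 to 3.61 in vivo, where animals 1 to 3 lay at 0.11 to 0.27 and animals 4 to 7 at 0.87 to 3.61. As deposited, the mean of 13 skeletal muscle markers was 5.17 to 12.15 ex vivo and 5.11 to 12.91 in vivo, so some pieces held muscle. Also as deposited, fibroblast markers averaged 10.68 to 11.23 ex vivo and 12.26 to 12.73 in vivo, and those of the macrophages 8.61 to 9.94 and 11.34 to 11.77. After the shift the fibroblast means were closer, at 10.96 to 11.50 ex vivo and 12.04 to 12.52 in vivo. Fewer cells of a type and less RNA per cell cannot be told apart in such bulk samples.

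The 3 C1q genes stand next to one another on mouse chromosome 4, in the order C1qb, C1qc and C1qa, and Cfb and C2 lie close together on chromosome 17. The 250 bases before the start of C1qb (chr4:136886201-136886450, minus strand) and of C1qc (chr4:136892915-136893164, minus strand) are shown. They are from RefSeq, build GRCm38.p6, whose promoter table held these 2 of the 6 measured members and no others. Capitals mark the letters GAGGAA, the core bound by the macrophage factor PU.1, with its reverse TTCCTC, and TGCTGA, a core bound by MAF factors, with its reverse TCAGCA.
C1qb: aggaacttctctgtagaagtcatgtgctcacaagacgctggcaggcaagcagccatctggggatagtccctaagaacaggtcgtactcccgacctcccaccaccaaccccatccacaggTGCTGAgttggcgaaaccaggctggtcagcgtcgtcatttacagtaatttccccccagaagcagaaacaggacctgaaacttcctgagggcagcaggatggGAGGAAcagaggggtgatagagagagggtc
C1qc: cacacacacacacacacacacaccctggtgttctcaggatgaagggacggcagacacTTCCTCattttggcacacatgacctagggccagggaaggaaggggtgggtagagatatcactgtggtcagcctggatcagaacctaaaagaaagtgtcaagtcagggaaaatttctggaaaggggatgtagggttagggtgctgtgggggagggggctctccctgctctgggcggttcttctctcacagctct
Searched on both strands, GAGGAA started at -30 in C1qb and its reverse at -193 in C1qc, and 23.3% of the table's 32851 promoters hold one or the other. TGCTGA stood at -131 in C1qb, and 16.1% of promoters hold it or its reverse. The interferon response core, GAAA and GAAA with 2 bases of any kind between them, was in neither window on either strand and in 2.98% of promoters. These motifs do not overlap one another here, and a match describes letters only.

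In explanted tissue the 3 C1q genes were far lower than in vivo, Cfb was higher, C2 was a little higher relative to the median probe and Serping1 did not pass the test on that scale. Of the 6 genes, limma called 2 higher and 3 lower at an adjusted p under 0.05, in shortened and in stretched tissue alike. Over all probes 36.9% were called higher and 29.6% lower in shortened tissue, and 35.1% higher and 28.4% lower in stretched tissue, so a call alone is common here. On values as deposited the split of all called probes was 3943 higher and 12607 lower in shortened tissue, against 8352 and 6690 after the shift, and 3719 and 12260 in stretched tissue, against 7950 and 6422. The values that follow are log2 signals after the shift to a common median. The shortened and the stretched comparison use different pieces of the same animals.

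**Figure D1:**
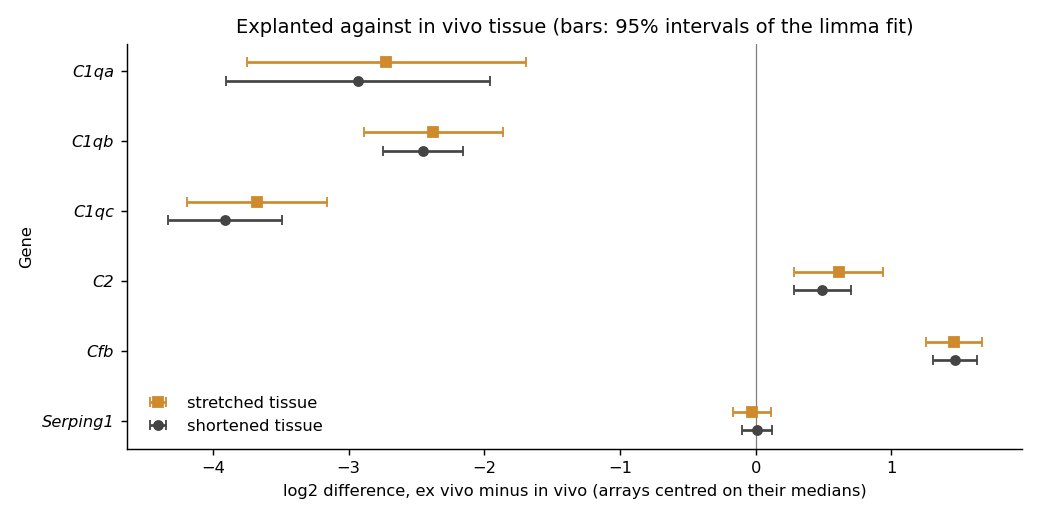
Log2 difference, ex vivo minus in vivo, of each of the 6 genes in shortened and stretched tissue, after arrays were shifted to a common median; bars are 95% intervals of the limma fit (4 ex vivo and 7 in vivo pieces of each kind). The 3 C1q genes lie between -3.91 and -2.37, Cfb near 1.46, C2 at 0.49 and 0.61, and Serping1 within 0.03 of 0.

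C1qc, the chain with the largest difference, was at 9.54, 8.17, 8.58 and 8.49 in ex vivo shortened tissue, against 12.47 to 12.81 in vivo with a median of 12.54. In ex vivo stretched tissue it was at 9.23, 9.06, 9.23 and 7.73, against 12.32 to 12.70 in vivo with a median of 12.46. No ex vivo piece came near any in vivo piece. The differences were -3.91 ± 0.19 in shortened tissue (SE, limma adjusted p = 3.11e-09) and -3.68 ± 0.24 in stretched tissue (limma adjusted p = 5.11e-08), a level 15.1 and 12.8 times lower ex vivo. Among 12393 genes ordered from the most lowered ex vivo, C1qc ranked 31 in shortened and 53 in stretched tissue.

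C1qb was at 10.74, 9.84, 10.23 and 10.20 in ex vivo shortened tissue, against 12.47 to 12.88 in vivo with a median of 12.68. In ex vivo stretched tissue it was at 10.28, 10.52, 10.70 and 9.18, against 12.35 to 12.90 in vivo with a median of 12.48. The groups did not overlap, and stretched animal 4 was the lowest piece, as it was for C1qc. The differences were -2.45 ± 0.14 in shortened tissue (limma adjusted p = 8e-09) and -2.37 ± 0.24 in stretched tissue (limma adjusted p = 2.36e-06), or 5.47 and 5.19 times lower ex vivo. C1qb has 3 probes of its own, and the others showed smaller differences, -0.94 ± 0.13 and -0.42 ± 0.17 in shortened tissue (limma adjusted p = 4.48e-05 and 0.0376) and -0.99 ± 0.23 and -0.47 ± 0.26 in stretched tissue (limma adjusted p = 0.00233 and 0.130). The direction was the same on each probe, while the size rests on the probe chosen.

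C1qa was at 10.01, 8.81, 9.07 and 9.21 in ex vivo shortened tissue, against 11.20 to 13.27 in vivo with a median of 11.75. In ex vivo stretched tissue it was at 9.83, 9.31, 9.86 and 8.79, against 10.57 to 13.28 in vivo with a median of 12.65. The groups did not overlap, although the in vivo pieces of C1qa were spread far more widely than those of the other chains. The differences were -2.93 ± 0.45 in shortened tissue (limma adjusted p = 8.18e-05) and -2.72 ± 0.47 in stretched tissue (limma adjusted p = 0.000265).

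That in vivo spread of C1qa followed the 2 sets of animals. As deposited, C1qa was 13.09 to 13.47 in the pieces of animals 1 to 3, whose Gapdh difference was 0.11 to 0.27, and 10.69 to 12.79 in those of animals 4 to 7. The other 2 chains were only slightly lower in animals 4 to 7, at means of 12.68 against 12.93 for C1qb and 12.60 against 12.86 for C1qc. Set against animals 1 to 3 alone, the ex vivo minus in vivo difference of C1qa was -3.94 in shortened and -3.59 in stretched tissue, and against animals 4 to 7 alone it was -2.17 and -2.07. C1qb stayed within -2.57 to -2.32 and C1qc within -4.03 to -3.60 over the same splits, and all 3 genes were called in each. With the Gapdh difference as a covariate, the C1qa difference was -3.96 in shortened and -3.43 in stretched tissue.

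**Figure D2:**
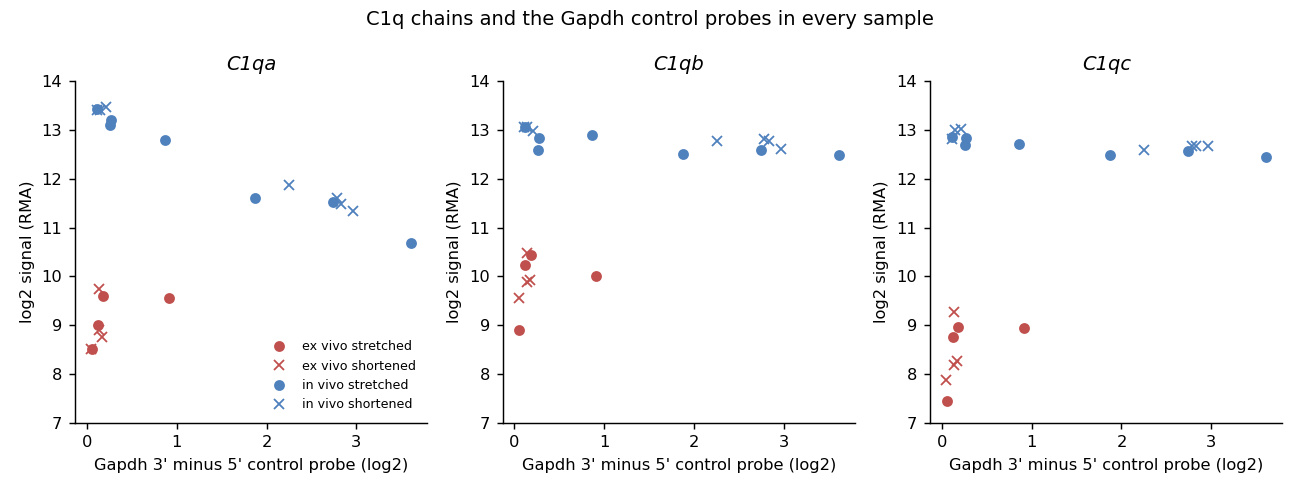
As-deposited log2 signal of the 3 C1q chains (vertical) against the Gapdh 3' minus 5' control probe difference (horizontal, log2), 1 point for each of the 22 samples. Among in vivo pieces C1qa runs from 13.47 at low Gapdh differences to 10.69 at the largest, while C1qb and C1qc stay between 12.45 and 13.07.

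Cfb, the protease of the alternative route, was at 12.40, 12.50, 12.61 and 12.58 in ex vivo shortened tissue, against 10.82 to 11.19 in vivo with a median of 11.09. In ex vivo stretched tissue it was at 12.14, 12.61, 12.66 and 12.43, against 10.93 to 11.11 in vivo with a median of 10.99. Every ex vivo piece lay above every in vivo piece. The differences were 1.47 ± 0.07 in shortened tissue (limma adjusted p = 3.88e-09) and 1.46 ± 0.09 in stretched tissue (limma adjusted p = 5.35e-08), or 2.77 and 2.75 times higher ex vivo. Among 12393 genes ordered from the most raised ex vivo, Cfb ranked 614 in shortened and 581 in stretched tissue.

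C2, whose gene lies beside Cfb, moved less. It was at 11.75, 11.66, 11.65 and 11.89 in ex vivo shortened tissue, against 10.88 to 11.41 in vivo with a median of 11.32, and at 11.88, 12.07, 11.63 and 11.67 in ex vivo stretched tissue, against 10.63 to 11.57 in vivo with a median of 11.23. The groups did not overlap in either tissue, although the lowest ex vivo and the highest in vivo piece came close in stretched tissue, at 11.63 and 11.57. The differences were 0.49 ± 0.10 in shortened tissue (limma adjusted p = 0.000654) and 0.61 ± 0.15 in stretched tissue (limma adjusted p = 0.00353). Both calls were lost on values as deposited, at 0.03 ± 0.09 and 0.17 ± 0.15 (limma adjusted p = 0.790 and 0.335), so C2 was higher relative to the median probe and not on the deposited scale.

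Serping1, which encodes the inhibitor of C1r and C1s, was the flattest member. It was at 13.44, 13.44, 13.54 and 13.59 in ex vivo shortened tissue, against 13.40 to 13.58 in vivo with a median of 13.50, and at 13.37, 13.53, 13.42 and 13.42 in ex vivo stretched tissue, against 13.31 to 13.61 in vivo with a median of 13.49. The groups overlapped in both tissues. The differences were 0.01 with a 95% interval of -0.10 to 0.12 in shortened tissue and -0.03 with an interval of -0.17 to 0.11 in stretched tissue (limma adjusted p = 0.894 and 0.706). On values as deposited it was lower ex vivo, with differences of -0.45 ± 0.04 and -0.47 ± 0.05 (limma adjusted p = 2.2e-07 and 3.84e-06), and the median probe differed by -0.38 on that scale. Quantile normalization of all samples together gave -0.21 and -0.22 (limma adjusted p = 9.28e-05 and 0.00211). Groups that did not overlap were common here, at 53.3% of all genes in shortened and 47.6% in stretched tissue, against 5 of the 6 members.

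**Figure D3:**
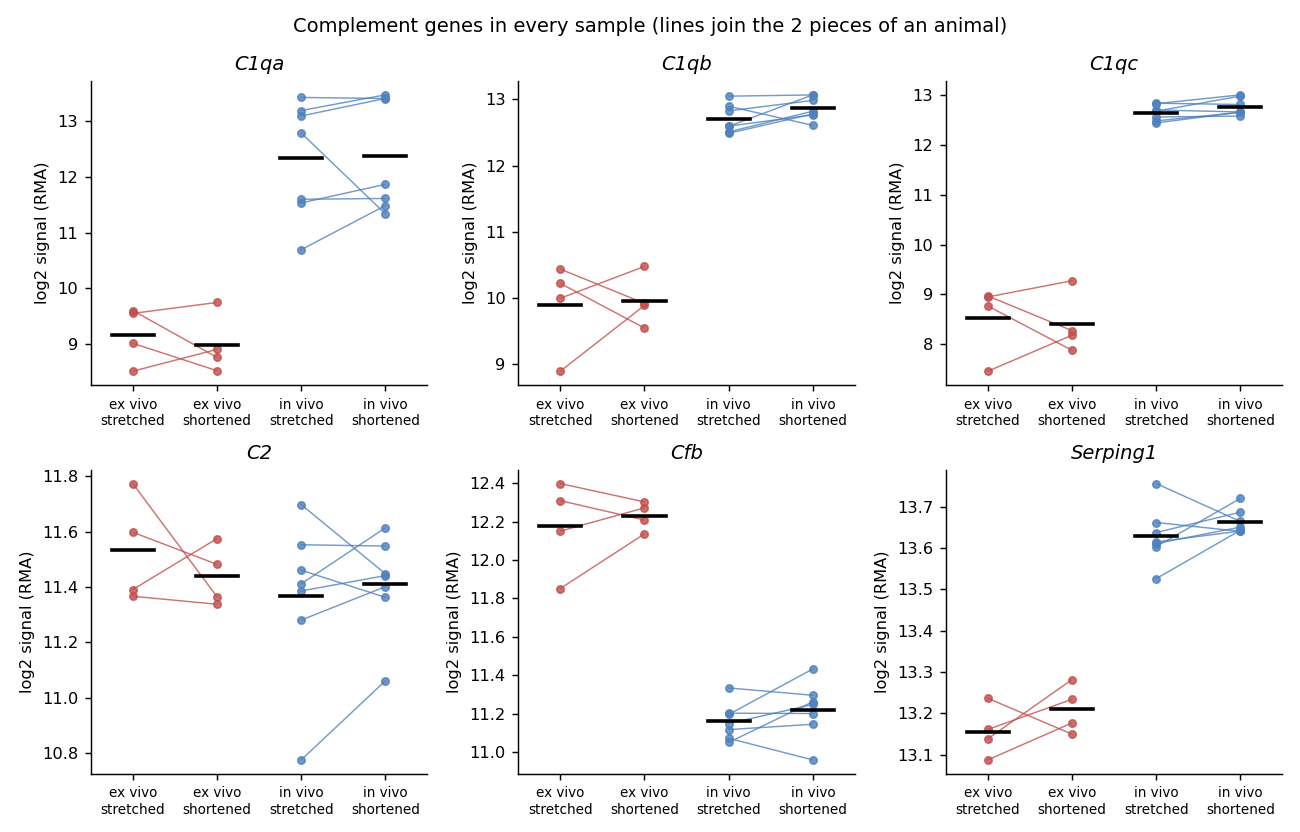
As-deposited log2 signal (vertical) of each member in every sample by group, ex vivo stretched, ex vivo shortened, in vivo stretched and in vivo shortened; lines join the 2 pieces of an animal. The C1q genes sit at 7.45 to 10.48 ex vivo and 10.69 to 13.47 in vivo, and Cfb at 11.85 to 12.40 and 10.96 to 11.43.

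Markers of the macrophage, the usual source of C1q, differed between the settings as well. Of 17 markers, 13 fell and 3 rose in ex vivo shortened tissue with a median of -1.87, and 12 fell and 4 rose in ex vivo stretched tissue with a median of -1.73, against medians of -0.01 and -0.02 over all genes. Lyz2, the lysozyme gene, fell, at -2.63 ± 0.17 and -2.97 ± 0.18. Ctss, encoding the lysosomal protease cathepsin S, rose by 0.60 ± 0.15 and 0.75 ± 0.18, a call that was lost on values as deposited. The other markers that rose in shortened tissue, named after their values were seen, were the antibody receptor gene Fcgr1 (1.46 ± 0.19) and the pore protein gene Mpeg1 (1.05 ± 0.09), and in stretched tissue Cd68 rose with these 3 (0.52 ± 0.20) after the shift alone. The shifted list mean was 8.89 to 10.08 in ex vivo stretched, 9.34 to 10.21 in ex vivo shortened, 11.12 to 11.57 in in vivo stretched and 11.39 to 11.55 in in vivo shortened tissue. No macrophage marker was at 0 in any sample, but the smallest deposited value was 1.89, so this shows nothing about macrophage number. Adipocyte and fibroblast markers were mostly lower ex vivo too, while those of some other cell types were not. Of 10 endothelial markers 5 rose and 2 fell in shortened tissue, and 3 rose and 2 fell in stretched tissue, with medians of 0.93 and 0.60. Neutrophil and keratinocyte markers were called in both directions. Of 12 adipocyte markers 10 fell in each tissue, with medians of -1.91 in shortened and -2.21 in stretched tissue, and of 12 fibroblast markers 10 fell and 1 rose in each, with medians of -1.11 and -0.97. All 13 skeletal muscle markers were lower ex vivo, with medians of -1.77 in shortened and -1.40 in stretched tissue. Only 1 of them was called in shortened tissue and 0 in stretched tissue. Of 7 hepatocyte markers 3 fell and 0 rose in each tissue, with medians of -0.10 and -0.09. The part of these cell type differences in the C1q difference was not tested.

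Inflammatory and interferon genes, like Cfb, were higher ex vivo than in vivo. All 18 measured interferon response genes rose in explanted tissue, with medians of 2.36 in shortened and 2.32 in stretched tissue. They were led by the chemokine genes Cxcl10 (6.08 ± 0.14 and 5.59 ± 0.26) and Cxcl9 (5.33 ± 0.53 and 4.07 ± 0.40). Of 20 acute phase and NF-kB genes 19 rose, with medians of 2.46 and 2.23, among them the cytokine gene Il6 (7.31 ± 0.38 and 7.03 ± 0.41), the pattern receptor gene Ptx3 (7.28 ± 0.11 and 7.38 ± 0.21) and the siderophore-binding Lcn2 (6.70 ± 0.17 and 6.55 ± 0.26). On values as deposited 17 of the 18 and 18 of the 20 still rose. After each group's mean was subtracted, Cfb correlated across the 22 samples at 0.49 with the interferon list mean and at 0.29 with the acute phase one. The part of these genes in the Cfb difference was not tested.

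The other genes of the pathway moved in both directions. Of 38 measured genes on 4 lists, 9 rose and 18 fell in ex vivo shortened tissue and 8 rose and 14 fell in ex vivo stretched tissue, with medians of -0.19 and -0.16. Over all 12393 genes 4132 rose and 4217 fell in shortened tissue and 3962 rose and 4037 fell in stretched tissue. With both directions pooled, the share called was close to that of all genes. While rises and falls were nearly even over all genes, more of the listed genes fell than rose. On values as deposited 3 rose and 27 fell in shortened tissue and 3 rose and 26 fell in stretched tissue, and the increases of 6 genes in shortened tissue (Hc, C9, C4bp, Cpn2, Csmd1 and Calr) and of 5 in stretched tissue (Mbl1, C9, C4bp, Susd4 and Csmd1) were then lost, 4 and 3 of them with a change of sign. After quantile normalization 5 rose and 20 fell in shortened tissue, and 8 rose and 17 fell in stretched tissue.

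Among the recognition proteins and proteases, 2 rose and 5 fell in shortened tissue and 3 rose and 3 fell in stretched tissue, of 10 measured. Properdin (Cfp), which steadies the alternative C3-cleaving enzyme, fell, at -3.41 ± 0.15 and -3.06 ± 0.25, and ficolin A (Fcna), a sugar-binding starter of the lectin route, fell too, at -2.83 ± 0.20 and -2.75 ± 0.27. The protease gene C1ra, whose product travels with C1q, fell slightly, at -0.27 ± 0.06 in shortened tissue. Colec12, a collectin receptor, rose by 2.38 ± 0.15 and 2.31 ± 0.19, and Masp1, a protease of the lectin route, by 1.17 ± 0.16 and 1.44 ± 0.28.

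Of 6 terminal components, 2 rose and 2 fell in shortened tissue, and 1 rose and 2 fell in stretched tissue. C6, a part of the membrane pore, fell, at -3.13 ± 0.10 and -3.23 ± 0.17, with mean shifted levels of 6.80 and 6.44 ex vivo against 9.93 and 9.67 in vivo. C9, another pore component, rose by 0.52 ± 0.10 and 0.66 ± 0.13 at low signal. Its means were 4.85 and 5.05 ex vivo against 4.33 and 4.40 in vivo.

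Of 12 regulators, 3 rose and 6 fell in shortened tissue and 3 rose and 4 fell in stretched tissue. Factor I (Cfi), which cuts C3b and C4b, fell, at -1.13 ± 0.13 and -1.22 ± 0.19. Cd59a, which blocks pore assembly on cells, fell, at -1.12 ± 0.23 and -1.21 ± 0.35, and vitronectin (Vtn), a soluble inhibitor of the pore, fell, at -1.01 ± 0.14 and -1.01 ± 0.20. The decay-accelerating factor gene Cd55 fell, at -0.49 ± 0.10 in shortened tissue. Csmd1, an inhibitor with many CUB and sushi domains, rose by 0.56 ± 0.16 and 0.64 ± 0.09 at low signal, with means of 3.50 and 3.48 ex vivo against 2.94 and 2.84 in vivo, and no increase on this list was called on values as deposited.

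Of 10 receptors, 2 rose and 5 fell in shortened tissue, and 1 rose and 5 fell in stretched tissue. Vsig4, a macrophage receptor for C3b, fell, at -3.82 ± 0.13 and -3.71 ± 0.22. The integrin chains of the C3 fragment receptors fell too, Itgam at -3.13 ± 0.20 and -2.96 ± 0.33, Itgax at -1.94 ± 0.12 and -1.88 ± 0.10, and their partner Itgb2 at -1.81 ± 0.18 and -1.48 ± 0.24. C1qbp, which encodes a mostly mitochondrial protein able to bind C1q, rose by 1.39 ± 0.10 and 1.38 ± 0.09.

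**Figure D4:**
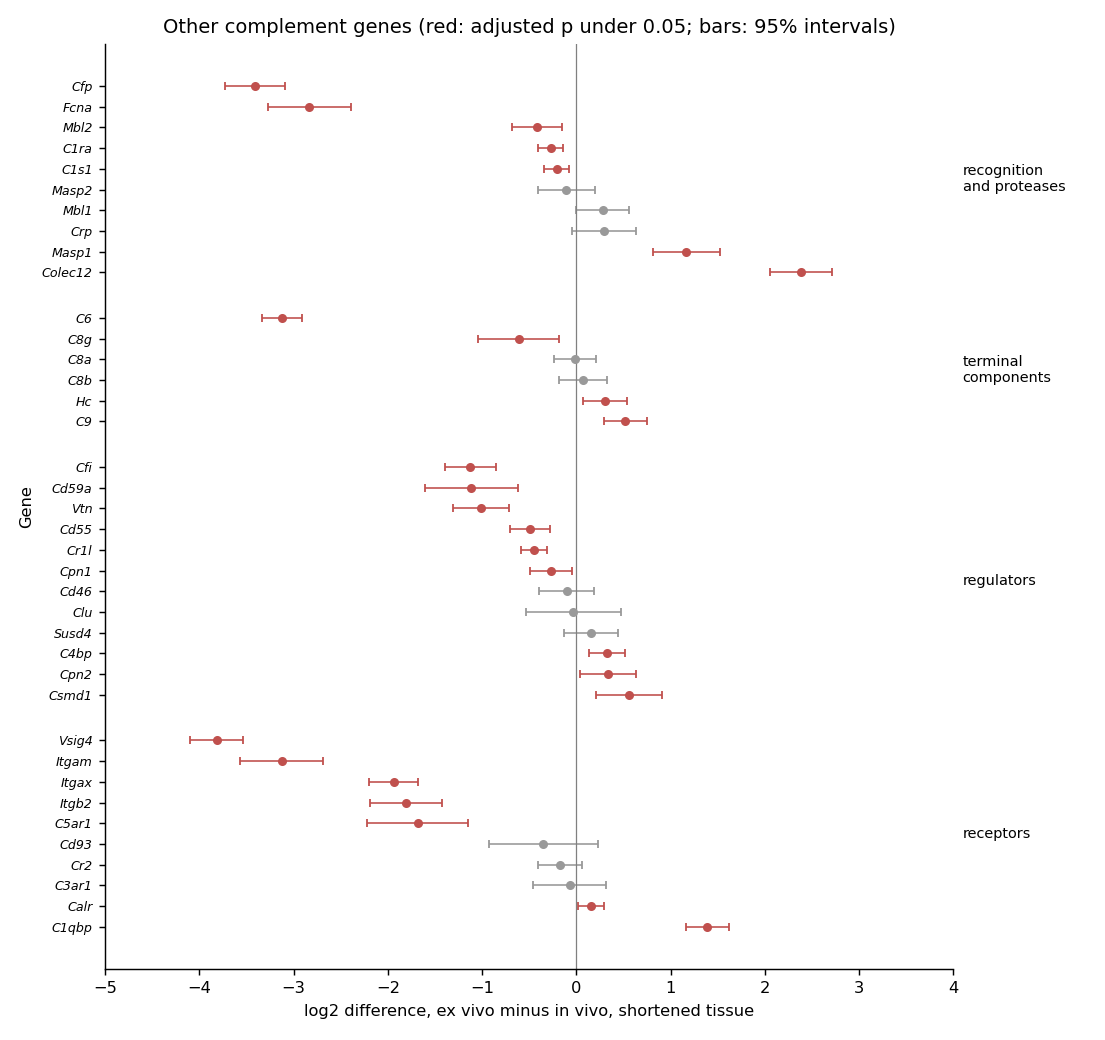
Log2 difference, ex vivo minus in vivo, in shortened tissue for the 38 other complement genes measured, grouped by role (vertical), after arrays were shifted to a common median; bars are 95% intervals of the limma fit and red marks an adjusted p under 0.05. Values run from -3.82 for Vsig4 to 2.38 for Colec12.

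Stretch in vivo left none of the 6 genes past the threshold, and each was slightly lower on average in the stretched pieces. Of all 12393 genes 6844 were lower there as well. Limma called 0% of all probes in this comparison, and 19.3% of them had an unadjusted p under 0.05, against 1 of the 6 members, C1qc. C1qc was 12.45 to 12.84 with a median of 12.68 in stretched pieces, and 12.59 to 13.01 with a median of 12.67 in shortened pieces, as deposited. The groups overlapped and the stretched piece was higher in 2 of 7 animals. The difference was -0.12 ± 0.05 (95% interval -0.22 to -0.01, limma adjusted p = 0.218).

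C1qb was 12.49 to 13.05 with a median of 12.60 in stretched pieces, and 12.61 to 13.07 with a median of 12.82 in shortened pieces. It was higher in 1 of 7 stretched pieces, and the difference was -0.16 ± 0.08 (95% interval -0.33 to 0.01, limma adjusted p = 0.276). C1qa averaged 12.33 ± 1.05 in stretched and 12.37 ± 1.00 in shortened tissue (SD, n = 7 each), a difference of -0.04 ± 0.21 (limma adjusted p = 0.945). That value hung on single animals, since leaving out 1 animal gave -0.29 to 0.088, with a change of sign in 4 of 7 fits. Animal 7 had 12.79 in its stretched and 11.34 in its shortened piece, with Gapdh differences of 0.87 and 2.96, and without this animal the C1qa difference was -0.29. With the Gapdh difference as a covariate it was -0.19 ± 0.08 (limma adjusted p = 0.239).

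C2, Cfb and Serping1 differed by -0.04 ± 0.06, -0.06 ± 0.05 and -0.03 ± 0.03 in vivo (limma adjusted p = 0.732, 0.526 and 0.607). Their 95% intervals were -0.18 to 0.09 for C2, -0.17 to 0.05 for Cfb and -0.11 to 0.04 for Serping1. C2 was lowest in animal 1, at 10.78 in its stretched and 11.06 in its shortened piece, where the adipocyte list was lowest too, at 9.22 and 9.74. In the other 6 animals that list was 11.09 or more and C2 was 11.28 or more. The endothelial, neutrophil, hepatocyte and skeletal muscle lists were also lowest in animal 1 among the in vivo pieces. After each group's mean was subtracted, C2 correlated across the 22 samples at 0.75 with the adipocyte list mean. It was at 0.69 with the endothelial, 0.66 with the neutrophil, 0.45 with the hepatocyte and 0.33 with the muscle list. The part of any of these cell types in C2 was not tested.

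**Figure D5:**
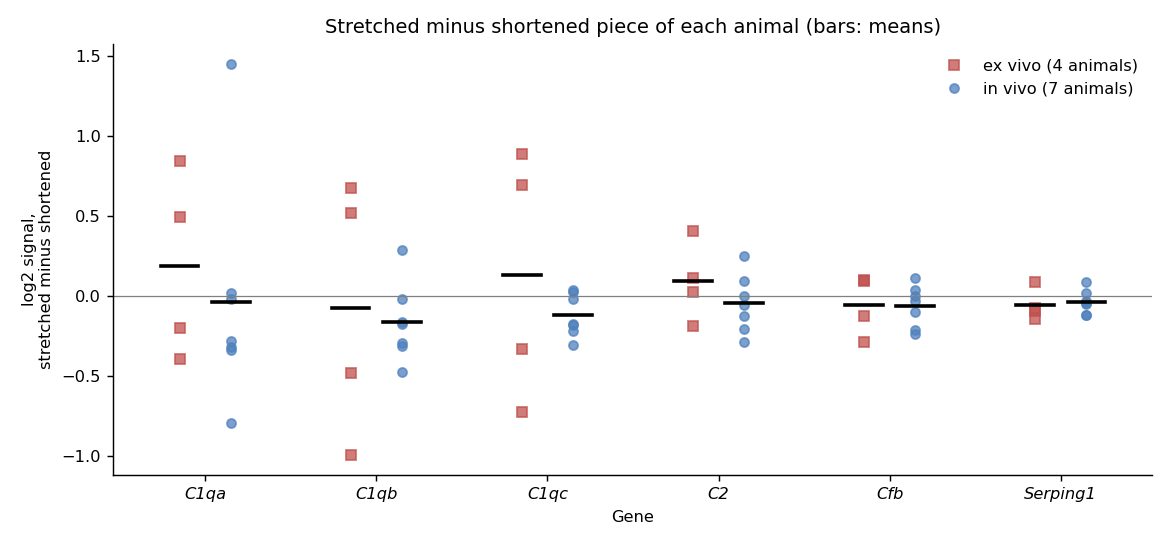
Stretched minus shortened log2 signal of each animal (vertical) for the 6 genes, ex vivo (4 animals) and in vivo (7 animals); bars are means. In vivo means lie between -0.16 and -0.03, and C1qa of in vivo animal 7 stands at 1.45, while ex vivo the C1q genes spread from -0.99 to 0.89.

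None of the 38 other pathway genes passed in vivo, where 13 had an unadjusted p under 0.05, all of them lower in stretched tissue. Of all 12393 genes 2695 had such a p, 1122 of them higher and 1573 lower. The list median was -0.08 and that of all genes -0.01, with 6844 of all 12393 genes below 0. Fcna (-0.33 ± 0.07) and Cfp (-0.25 ± 0.06) were lower in the stretched piece of each of 7 animals, as was Cd55 (-0.36 ± 0.09), all with limma adjusted p = 0.172. Values for C6, Vsig4 and Itgam were -0.26 ± 0.08, -0.34 ± 0.08 and -0.34 ± 0.10. All 17 macrophage markers were below 0 as well, none past the threshold, with a median of -0.16, and so were all 12 fibroblast markers, with a median of -0.10. All 12 adipocyte markers were above 0, with a median of 0.43, and 13 of 13 skeletal muscle markers were above 0 with a median of 2.22. The part of the macrophage, fibroblast, adipocyte and skeletal muscle differences in those of the pathway was not tested. With the muscle list as a covariate C1qb was at -0.12 ± 0.12 and C1qc at -0.12 ± 0.07. In that fit 1307 of 22626 probes had an unadjusted p under 0.05, against 4373 without the covariate.

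Stretch ex vivo did not move the members past the threshold either. Limma called 0% of probes, 11.1% had an unadjusted p under 0.05, and none of the 6 members did. The 3 C1q genes went up in the same 2 animals and down in the other 2. C1qc differed by -0.33, 0.89, 0.70 and -0.72 in animals 1 to 4, C1qb by -0.48, 0.67, 0.52 and -0.99, and C1qa by -0.20, 0.49, 0.84 and -0.39. The mean of the 17 macrophage markers moved the same way in each of these animals, by -0.42, 0.46, 0.29 and -0.72.

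The mean differences ex vivo were 0.13 ± 0.28 for C1qc, -0.07 ± 0.28 for C1qb and 0.19 ± 0.21 for C1qa (limma adjusted p = 0.894, 0.949 and 0.779). Their 95% intervals ran from -0.74 to 0.79, which is wide for 4 animals. C2 was at 11.60, 11.77, 11.37 and 11.39 in stretched pieces, against 11.48, 11.36, 11.34 and 11.57 in shortened pieces, as deposited. Cfb was at 11.85, 12.31, 12.40 and 12.15 in stretched pieces, against 12.14, 12.21, 12.30 and 12.27 in shortened pieces. Their groups overlapped, with differences of 0.09 ± 0.10 and -0.05 ± 0.08 (limma adjusted p = 0.772 and 0.849), and Serping1 differed by -0.05 ± 0.06 (limma adjusted p = 0.761). Of the pathway genes Colec12 alone had an unadjusted p under 0.05 (-0.33 ± 0.13, limma adjusted p = 0.423).

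The stretch effect itself was compared between ex vivo and in vivo tissue, and no member passed the threshold. Limma called 0.177% of probes there, 15.3% had an unadjusted p under 0.05, and none of the members did. The ex vivo minus in vivo difference of the effects ran from -0.02 ± 0.06 for Serping1 to 0.25 ± 0.25 for C1qc, with limma adjusted p between 0.629 and 0.978. The C1q intervals reached from -0.54 to 0.98, which is wide beside the effects themselves.

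Within groups the chains of C1q did not all vary alike. After each group's mean was subtracted, C1qb and C1qc correlated at r = 0.93 across the 22 samples, and C1qa with each of them at 0.61 and 0.58. The pieces of an animal and the arrays of a setting share their source, so these are descriptions. The mean of the macrophage markers correlated at 0.94 with C1qb, 0.93 with C1qc and 0.42 with C1qa, and that of the fibroblast markers at 0.78, 0.77 and 0.51. C1qa also moved with RNA quality in vivo, most clearly in animals 4 to 7. Its correlation with the Gapdh difference was -0.76 over the 6 pieces of in vivo animals 1 to 3, and -0.43 by ranks. Over the 8 pieces of animals 4 to 7 it was -0.94, and -0.88 by ranks. C1qb was at -0.84 and -0.52 and C1qc at -0.28 and -0.39 over the same in vivo pieces, without ranks. Over the 8 ex vivo pieces the sign was opposite, at 0.49 for C1qa, 0.19 for C1qb and 0.42 for C1qc. The other members were at -0.78 for Cfb, -0.54 for Serping1 and 0.30 for C2 over these ex vivo pieces. In vivo animals 1 to 3 and 4 to 7 gave 0.12 and -0.04 for Cfb, and -0.78 and 0.08 for Serping1. For C2 they gave 0.60 and 0.65. The part of RNA quality in the likeness of genes to C1qa was not tested. The genes most like C1qa by correlation within groups, among 12393, were Chmp1a (0.97), 2310011J03Rik (0.96), Plbd2 (0.96), Scand1 (0.95) and Gnb2 (0.95), where C1qb ranked 1118 and C1qc 1232. Those most like Serping1 were Loxl3 (0.83), Krt80 (0.82), Dusp22 (0.82), Car8 (0.82) and Ptgis (0.78).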

How the data were processed

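RNA of 22 tissue pieces was measured on arrays. The authors deposited log2 signals per probe, made with RMA and the affy package per the submitters' processing notes, with versions not given in the sources used here; RMA corrects background, normalizes quantiles and summarises probes. Values ran from 1.89 to 14.4. Of 22690 probes 64 controls were left out, and 20380 carried 1 gene symbol. Arrays number few, which limits the precision.

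Tests used limma 3.58.1 in R 4.3.3 (lmFit, eBayes with a trend), Benjamini-Hochberg over 22626 probes and a threshold of 0.05. Stretch fits held the animal as a block, since the series design compares within animals; deviations of an animal's pieces correlated at 0.385 to 0.867 in vivo and 0.109 to 0.284 ex vivo. Ex vivo and in vivo tissue were compared on arrays shifted to a common median. The script was tested on simulated data. Errors of differences are SE.

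The members and gene lists were chosen with earlier results of these data known. Named genes were drawn, per list, from the 4 largest called changes in each direction, or the 3 of smallest p where none passed. For cell type lists they were drawn from the 2 of highest mean. Not every gene under this rule is named above. Left out were, for example, Cxcl1 between settings, and for in vivo stretch C8b, Cxcl9 and Saa3, all higher in stretched tissue and none past the threshold. Alternatives were other scaling, filters, weights, covariates, probes and samples.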

Additional observations from a re-analysis of the deposited data

Results flagged for a closer look

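A sample far from the others of its group was looked for in 36 sets of member values, and chance alone flags about 1 in 20 such groups. In vivo, the C1qa difference of animal 7 was 1.45 (stretched minus shortened), while the nearest of the other 6 animals was at 0.02. Ex vivo, C1qc of the stretched piece of animal 4 was 7.45 as deposited, against 8.77 for the nearest stretched piece. The Gapdh difference of animal 7 was 0.87 in its stretched and 2.96 in its shortened piece, and the macrophage list mean of ex vivo stretched animal 4 was the lowest of all samples at 8.61. What part these values have in the 2 distant samples was not tested.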

How the results depend on the processing

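The number of members called was 0 in both stretch comparisons and in their difference under each alternative run, including the fits with no replicate block, which gave 0, and the fits without 1 animal (0 to 0). It was 5 in both comparisons of settings, 5 to 5 without 1 animal, 6 after quantile normalization, where Serping1 joined, and 4 in stretched tissue with the second C1qb probe. On values as deposited it was again 5, with Serping1 called and C2 not.

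The pairs called muscle-rich here were in vivo animals 5 and 6 and ex vivo animals 3 and 4. Their stretched piece exceeded the shortened one most in the muscle list. Leaving them out did not remove all muscle, since the stretched pieces of in vivo animals 3, 4 and 7 stayed in at 12.88, 12.33 and 12.11. Signs that turned belonged to small differences that were not called as reported. In vivo they were C2 with array weights (0.013) and in animals 4 to 7 (0.020), Serping1 with muscle content as a covariate (0.0038), and C1qa without the muscle-rich pairs (0.016) and in animals 4 to 7 (0.078). The split by animals 1 to 3 and 4 to 7 was chosen after seeing the data. Ex vivo they were C1qb with muscle content (0.059) or RNA quality (0.0028) as a covariate and without the muscle-rich pairs (0.097), and Cfb with RNA quality (0.016). For the difference of the stretch effects they were Cfb without the muscle-rich pairs (-0.069) and on centred arrays (-0.0085), Serping1 without the muscle-rich pairs (0.017) and C1qb on its second probe (-0.030). Between settings only Serping1 turned, in shortened tissue after quantile normalization (-0.208), with array weights (-0.0068), without the muscle-rich pairs (-0.033), as deposited (-0.453) and against animals 4 to 7 (-0.035), and in stretched tissue against animals 1 to 3 (0.0048).

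Without 1 animal, C1qa ran from -0.287 to 0.088 in vivo. Ex vivo the ranges were -0.032 to 0.379 for C1qa, -0.318 to 0.237 for C1qb, -0.118 to 0.421 for C1qc, -0.013 to 0.184 for C2 and -0.103 to 0.025 for Cfb. For the difference of the effects they were -0.155 to 0.400 for C1qb, -0.043 to 0.086 for Cfb and -0.068 to 0.0085 for Serping1, and for Serping1 between settings in shortened tissue -0.021 to 0.029. The cause of these turns was not tested.

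Over all probes, 0 passed for stretch ex vivo but 661 did with all 22 samples in 1 fit, none of them a member. For the difference of the stretch effects 40 passed, against 3 with no replicate block, 4 without a trend, 5 after quantile normalization, 8 with muscle content, 9 without the muscle-rich pairs, 74 with low probes left out and 330 with array weights, and 0 to 663 without 1 animal, with 663 when ex vivo animal 1 and 331 when ex vivo animal 4 was left out. The number of animals limits the precision, and arrays give no depth.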
